A study of Mus musculus with 6 samples.

Results

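The genes described here are 10 antioxidant genes of blood cells, *Prdx2*, *Cat*, *Gpx1*, *Gpx4*, *Sod1*, *Blvrb*, *Gclc*, *Gclm*, *Gsr* and *Nfe2l2*. They were chosen by name for roles in peroxide and superoxide removal, glutathione metabolism and heme breakdown, with *Nfe2l2* as a regulator. Earlier results of these data were known when they were chosen. All 10 were found among the 39179 mouse genes of the count files. RNA-seq was performed on whole bone marrow of 3 *MxCDX2* mice and 3 control littermates. The comparison addresses how ectopic expression of *CDX2*, a homeobox gene of the intestine that is switched on in many acute leukemias, changes the marrow transcriptome. *MxCDX2* mice (RsCDX2::Mx1Cre) carried the *RsCDX2* knockin, with human *CDX2* behind a loxP-flanked stop sequence at *Rosa26*, together with the *Mx1Cre* transgene, whose interferon-inducible promoter is not restricted to one blood lineage. Each control mouse had a genotype of its own, *RsCDX2* for control mouse 1, *Mx1Cre* for control mouse 2 and wild type for control mouse 3. All 6 mice, controls included, had been injected intraperitoneally with poly(I:C) 3 times, at 10 µg per g of body weight and an age of 3 months, and marrow was taken 6 weeks later. The labels and the methods differ on the interval between injections, given as 1 day in the former.

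Red cells carry oxygen bound to heme iron, and this iron steadily yields superoxide and hydrogen peroxide. Superoxide dismutase turns superoxide into hydrogen peroxide, which is then removed by catalase, by peroxiredoxin 2 and by glutathione peroxidases. Glutathione is made from amino acids in a pair of ATP-dependent steps, and glutathione reductase regenerates it with NADPH, while NRF2, the product of *Nfe2l2*, switches on many of these genes under oxidative stress.

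The promoter windows of 5 of the genes are shown because *Prdx2* and *Blvrb* had the largest falls described below, and because *Gclm*, *Nfe2l2* and *Sod1* were the members whose window held the core of the NRF2 element. Each window runs 5′ to 3′ on the strand of the gene, from 250 bases before to 50 after an annotated start (RefSeq, GRCm38.p6), and capitals mark a match to the core TGACNNNGC or its reverse complement GCNNNGTCA.
Prdx2 (chr8:84969372-84969671, plus strand): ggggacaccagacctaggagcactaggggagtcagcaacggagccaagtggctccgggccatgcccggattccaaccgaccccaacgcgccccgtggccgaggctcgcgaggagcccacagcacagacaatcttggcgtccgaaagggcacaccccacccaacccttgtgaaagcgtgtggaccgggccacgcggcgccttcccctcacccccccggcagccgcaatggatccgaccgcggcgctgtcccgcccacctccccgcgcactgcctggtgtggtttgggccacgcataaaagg
Blvrb (chr7:27447728-27448027, plus strand): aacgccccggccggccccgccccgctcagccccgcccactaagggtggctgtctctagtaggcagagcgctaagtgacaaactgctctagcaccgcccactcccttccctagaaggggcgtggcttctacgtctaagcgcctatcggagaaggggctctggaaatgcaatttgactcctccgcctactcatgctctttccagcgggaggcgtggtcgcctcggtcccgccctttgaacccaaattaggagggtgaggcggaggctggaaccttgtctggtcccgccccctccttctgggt
Gclm (chr3:122245307-122245606, plus strand): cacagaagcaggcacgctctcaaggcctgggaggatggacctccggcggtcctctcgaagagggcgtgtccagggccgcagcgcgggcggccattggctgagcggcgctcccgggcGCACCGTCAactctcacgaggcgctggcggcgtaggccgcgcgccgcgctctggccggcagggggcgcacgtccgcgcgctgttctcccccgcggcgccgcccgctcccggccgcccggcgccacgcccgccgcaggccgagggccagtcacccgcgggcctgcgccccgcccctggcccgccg
Nfe2l2 (chr2:75704614-75704913, minus strand): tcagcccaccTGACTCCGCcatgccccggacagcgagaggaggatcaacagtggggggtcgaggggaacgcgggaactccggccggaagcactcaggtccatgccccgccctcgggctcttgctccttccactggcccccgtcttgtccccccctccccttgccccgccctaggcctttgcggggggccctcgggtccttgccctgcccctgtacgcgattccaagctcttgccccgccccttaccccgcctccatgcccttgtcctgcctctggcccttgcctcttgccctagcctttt
Sod1 (chr16:90220512-90220811, plus strand): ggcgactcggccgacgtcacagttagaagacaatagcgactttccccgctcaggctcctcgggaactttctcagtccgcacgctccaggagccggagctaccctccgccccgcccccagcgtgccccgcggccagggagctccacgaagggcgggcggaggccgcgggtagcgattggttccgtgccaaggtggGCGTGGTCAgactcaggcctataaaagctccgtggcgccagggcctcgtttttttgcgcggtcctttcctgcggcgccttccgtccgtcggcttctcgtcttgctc
The RefSeq table held 12 windows for 8 of the 10 genes and none for *Gclc* and *Gsr*. With the start site counted as 0, the core began at -240 in *Nfe2l2* (TGACTCCGC), at -134 in *Gclm* (GCACCGTCA) and at -56 in *Sod1* (GCGTGGTCA). It occurred in 12.4% of the 32851 windows of the table, so a match in 3 of 8 genes is a description of these letters and not a mapped site. AGATAA, a form of the letters read by GATA factors, occurred on either strand in 11.2% of all windows and in 0 of the 12. Other forms, such as TGATAA and TGATAG, were not searched, so the 0 covers AGATAA alone. The letters TTTATNG, used for CDX proteins, occurred in 10.9% of all windows and, among these genes, in that of *Sod1* alone, as CTATAAA at -38 on the reverse strand. CCAAT occurred in 37.4% of all windows and in those of *Cat*, *Gclm*, *Gpx4* and *Sod1*. The CACC box letters CCNCNCCC, which were found in 49.5% of all windows, occurred in 10 of the 12 windows, from all 8 genes. The median GC content of all windows was 52.7%, and the 5 windows printed here had 63.0% to 79.7%. The part of GC content in these matches was not tested.

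Libraries held between 38646101 and 49899650 reads counted on genes. Mouse *Cdx2* had 4, 0 and 0 reads in control mice 1 to 3 and 152, 155 and 183 in *MxCDX2* mice 1 to 3. The transgene was human *CDX2* and reads were aligned to the mouse genome. Whether these reads came from the transgene or the mouse gene was not tested. The first principal component held 60.5% of the variance and separated the groups, and along the second (15.6%) the wild-type control mouse lay apart from the other control mice. In that mouse 2507 of the 15980 tested genes (15.7%) lay more than 1.5-fold above both other controls, compared with 517 in the *RsCDX2* and 452 in the *Mx1Cre* control mouse. Markers of every blood lineage that was looked up were detected, with no listed marker at 0 in all mice.

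Of the 10 antioxidant genes, 5 fell in *MxCDX2* marrow and none rose. *Blvrb*, *Prdx2*, *Gclm*, *Cat* and *Gclc* fell past both thresholds (|log2 fold change| > 1 and adjusted p-value < 0.05 in edgeR's quasi-likelihood test), whereas 9.03% of all tested genes were called lower and 4.59% higher. The remaining 5, *Gpx1*, *Gpx4*, *Sod1*, *Gsr* and *Nfe2l2*, passed neither threshold. By adjusted p-value alone the members past the threshold were the same 5, against 21.7% of all tested genes. No member was called higher by DESeq2 or limma voom either, and of the 6 members with an unadjusted p below 0.05 in edgeR, 0 were higher. Groups did not overlap for 6 members, the 5 that fell and *Gpx1*, whereas 20.7% of the tested genes had every *MxCDX2* mouse below every control mouse. The median log2 fold change over the 10 genes was -0.84, compared with 0.0021 over all tested genes.

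**Figure D1:**
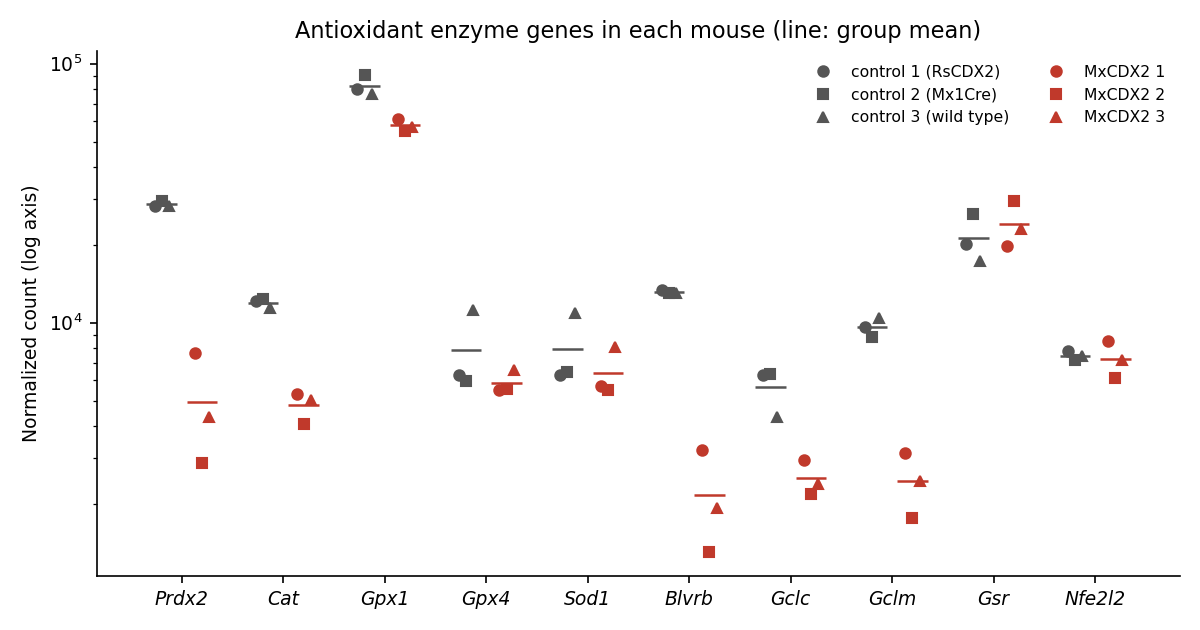
Normalized count (log axis) of each antioxidant gene in each of the 3 control mice (grey) and 3 *MxCDX2* mice (red), with a line at the group mean. *Prdx2*, *Cat*, *Gpx1*, *Blvrb*, *Gclc* and *Gclm* show red points that all lie below the grey ones, and the wild-type control mouse (grey triangle) stands above the other controls for *Gpx4* and *Sod1*.

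*Prdx2* encodes peroxiredoxin 2, one of the most abundant proteins of the red cell, which reduces hydrogen peroxide through a reactive cysteine. The gene (ENSMUSG00000005161) lies at chr8:84969587-84974834 on the plus strand of GRCm38. Its normalized count, the read count scaled to a common library size, was 28150, 29629 and 28285 in control mice 1 to 3 and 7634, 2878 and 4323 in *MxCDX2* mice 1 to 3. Control mice were within 1.05-fold of each other, whereas *MxCDX2* mouse 1 was 2.65-fold above *MxCDX2* mouse 2, and the groups were far apart. The mean fell 5.80-fold, from 28688 ± 818 to 4945 ± 2438 (SD, n = 3 in each group), with a log2 fold change of -2.54 (SE 0.35, edgeR adjusted p = 0.0047). Exons of *Prdx2* overlap *Rnaseh2a* and *Junb* on the opposite strand over 5.8% and 5.7% of their bases. In whole marrow, fewer cells that express a gene and less RNA per cell cannot be told apart, here and for every gene below.

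*Cat* encodes catalase, which splits hydrogen peroxide into water and oxygen without a reducing partner. The gene (ENSMUSG00000027187) lies on the minus strand at chr2:103453849-103485160. Normalized counts were 12104, 12314 and 11423 in the control mice and 5331, 4079 and 5024 in the *MxCDX2* mice. Both groups were tight, and the lowest control mouse was above the highest *MxCDX2* mouse. *Cat* fell 2.48-fold, from 11947 ± 466 to 4811 ± 652 (SD, n = 3), with a log2 fold change of -1.31 (SE 0.13, edgeR adjusted p = 0.00196).

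*Gpx1* encodes the main cytosolic glutathione peroxidase, a selenoprotein, and is at chr9:108338903-108340343 on the plus strand (ENSMUSG00000063856). Normalized counts were 80025, 90781 and 76316 in control mice and 61365, 55129 and 57210 in *MxCDX2* mice. Groups did not overlap, but the difference between means of 82374 ± 7513 and 57901 ± 3175 (SD, n = 3) was modest. With a log2 fold change of -0.51 (SE 0.16), *Gpx1* missed the threshold in edgeR (adjusted p = 0.0631), whereas DESeq2 gave an adjusted p of 0.00589 and limma voom of 0.0257. Leaving out the wild-type control mouse gave an edgeR adjusted p of 0.0305. The fold threshold was not reached in any of these fits.

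*Gpx4*, at chr10:80047166-80056439 on the plus strand (ENSMUSG00000075706), encodes the glutathione peroxidase that reduces lipid peroxides within membranes. Normalized counts were 6258, 5962 and 11228 in control mice and 5512, 5561 and 6544 in *MxCDX2* mice, so that groups overlapped. The wild-type control mouse was 1.84-fold above the mean of the other controls. The log2 fold change was -0.41 (SE 0.25, edgeR adjusted p = 0.295), and without the wild-type mouse it was -0.04.

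*Sod1* encodes the cytosolic copper-zinc superoxide dismutase and lies at chr16:90220754-90226329 on the plus strand (ENSMUSG00000022982). Normalized counts were 6297, 6426 and 10926 in the control mice and 5719, 5491 and 8031 in the *MxCDX2* mice. Here too the wild-type mouse was high, 1.72-fold above the mean of the other controls, and the groups overlapped. The log2 fold change of -0.30 (SE 0.26, edgeR adjusted p = 0.463) became 0.03 without that mouse. The part of this mouse's overall difference in the values of *Gpx4* and *Sod1* was not tested.

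*Blvrb* encodes biliverdin reductase B, a flavin reductase of red cells. The gene (ENSMUSG00000040466) lies at chr7:27447978-27466144 on the plus strand. Normalized counts were 13368, 12992 and 13057 in control mice and 3239, 1305 and 1918 in *MxCDX2* mice. The control mice were nearly equal, with a coefficient of variation of 1.53%, compared with 45.9% among the *MxCDX2* mice, all of which lay far below. *Blvrb* fell 6.10-fold, from 13139 ± 201 to 2154 ± 989 (SD, n = 3), the largest fall of the 10 genes, with a log2 fold change of -2.61 (SE 0.32, edgeR adjusted p = 0.00345).

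*Gclc* and *Gclm* encode the catalytic and the modifier subunit of glutamate-cysteine ligase, the rate-limiting enzyme of glutathione synthesis. *Gclc* (ENSMUSG00000032350) lies at chr9:77754535-77794485 and *Gclm* (ENSMUSG00000028124) at chr3:122245557-122270732, both on the plus strand. Normalized counts of *Gclc* were 6299, 6322 and 4310 in the control mice and 2950, 2180 and 2384 in the *MxCDX2* mice. The wild-type control mouse was the lowest control, at 0.683 of the mean of the other controls, and was still above every *MxCDX2* mouse. *Gclc* fell 2.25-fold, from 5644 ± 1155 to 2505 ± 399.1 (SD, n = 3), with a log2 fold change of -1.17 (SE 0.19, edgeR adjusted p = 0.00805).

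For *Gclm* the normalized counts were 9656, 8792 and 10403 in the control mice and 3145, 1759 and 2451 in the *MxCDX2* mice. Every *MxCDX2* mouse was far below every control mouse, and the fall was 3.92-fold, from 9617 ± 806 to 2452 ± 693 (SD, n = 3; log2 fold change -1.97, SE 0.22, edgeR adjusted p = 0.00253). Exons of *Gclm* overlap 2 further annotated genes, *Gm17494* on the opposite strand and *Gm6061*, over 4.7% and 3.9% of their bases, and these had at most 35 and 0 reads.

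The balance of the subunits within each mouse restates the gap between these fold changes and is no separate result. The log2 ratio of *Gclc* to *Gclm*, in counts per kb of exon, was 0.12, 0.27 and -0.53 in the control mice and 0.65, 1.05 and 0.70 in the *MxCDX2* mice. The *MxCDX2* mice were all higher, with means of -0.05 ± 0.43 and 0.80 ± 0.22 (SD, n = 3) and a difference of 0.85. The exact two-sided permutation test of this gap gave p = 0.10, the smallest value that 3 mice against 3 allow, and with each mouse left out in turn the difference ran from 0.61 to 1.00.

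*Gsr* encodes glutathione reductase and lies at chr8:33652523-33698163 on the plus strand (ENSMUSG00000031584). Normalized counts were 20146, 26395 and 17261 in control mice and 19814, 29414 and 22925 in *MxCDX2* mice. The groups overlapped, and *Gsr* was the only one of the 10 genes with a positive log2 fold change, of 0.18 (SE 0.22, edgeR adjusted p = 0.605). The spread between mice was near 20% of the mean in each group, with coefficients of variation of 21.95% and 20.4%.

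*Nfe2l2*, at chr2:75675513-75704641 on the minus strand (ENSMUSG00000015839), encodes NRF2, which is regulated mainly through the stability of the protein and not of the transcript. Normalized counts were 7794, 7152 and 7430 in control mice and 8494, 6109 and 7169 in *MxCDX2* mice. *MxCDX2* mice lay on both sides of the controls, and the log2 fold change was -0.04 (SE 0.14, edgeR adjusted p = 0.867). Its sign turned with the scaling and with the mice included: it was 0.07 when libraries were scaled by total counts only.

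**Figure D2:**
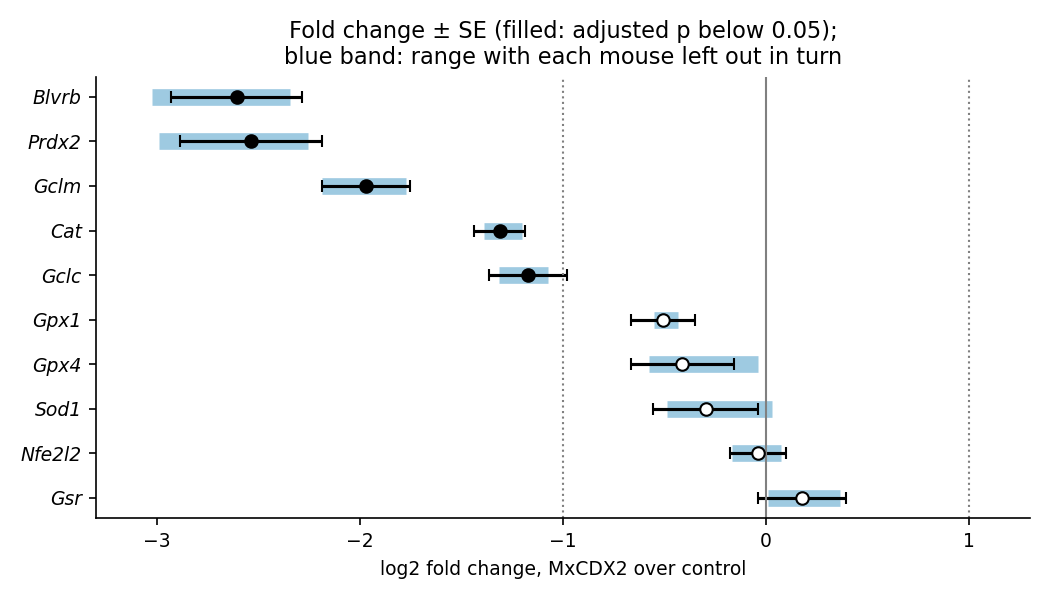
log2 fold change of each antioxidant gene, *MxCDX2* over control mice, with its standard error, filled where the edgeR adjusted p-value was below 0.05, and a blue band for the range with each mouse left out in turn. *Blvrb*, *Prdx2*, *Gclm*, *Cat* and *Gclc* keep bands beyond the dotted line at -1, and the bands of *Sod1* and *Nfe2l2* cross 0.

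The 3 *MxCDX2* mice differed among themselves. Reads on no gene made up 9.85%, 14.1% and 9.31% of all reads tallied in *MxCDX2* mice 1, 2 and 3. The part of this in the levels below was not tested. In all 5 genes that fell, mouse 1 kept the highest and mouse 2 the lowest level of the 3. The order was not particular to these genes: *Gpx1* and *Nfe2l2* had it too, which makes 7 of the 10, and so had 26.0% of all tested genes and 46.7% of the 1443 genes called lower. *Prdx2* kept 26.6%, 10.0% and 15.1% of the control mean in *MxCDX2* mice 1, 2 and 3. *Blvrb* kept 24.7%, 9.93% and 14.6%, nearly the same as *Prdx2*, and *Gclm* kept 32.7%, 18.3% and 25.5%. *Cat* and *Gclc* kept more, with 44.6%, 34.2% and 42.1% for *Cat* and 52.3%, 38.6% and 42.3% for *Gclc*.

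Erythroid and B cell markers had this order as well, all 13 erythroid and all 8 B cell markers tested. All 13 erythroid markers were called lower, with a median log2 fold change of -3.55, and their summed normalized counts ranged from 1910854 to 2266009 in the control mice and from 57383 to 220884 in the *MxCDX2* mice. The 9 markers left after removal of the globin genes, a sum added after the data had been seen, kept 17.3%, 3.87% and 8.01% of the control mean in *MxCDX2* mice 1, 2 and 3. Each of the 5 antioxidant genes kept a larger share than this sum in every *MxCDX2* mouse. That does not hold against every single marker. *Tfrc* had a log2 fold change of -2.13, a smaller fall than those of *Blvrb* (-2.61) and *Prdx2* (-2.54). The other tested erythroid markers ran from -4.24 to -3.34. Other lineages moved too. Of the neutrophil markers 5 of 10 were called lower (7 by DESeq2 and 7 by limma voom). Among those not called, *Elane*, *Mpo* and *Prtn3* had log2 fold changes of -0.31, 0.31 and 0.78. Summed normalized counts of the neutrophil markers were 1873025 to 3081428 in the control mice and 901318 to 1195617 in the *MxCDX2* mice. Of the macrophage markers 4 of 7 were called lower (5 by DESeq2 and 2 by limma voom). Among those not called, *C1qb*, *Mrc1* and *Adgre1* had log2 fold changes of -1.92, 0.01 and 0.75, and *Adgre1* was higher without overlap between groups. Without the wild-type control mouse 3 macrophage markers were called lower and 1 higher. Sums of the macrophage markers were 22256 to 65224 in the control mice, the highest being the wild-type mouse, and 15641 to 19183 in the *MxCDX2* mice. Of the B cell markers 4 of 8 were called lower, and 7 without the wild-type control mouse, with sums of 33112, 47868 and 18588 in control mice 1 to 3 and 13179, 4046 and 9311 in *MxCDX2* mice 1 to 3. Of the T and NK cell markers 2 of 8 were called lower (6071 to 11777 in control mice and 2726 to 5219 in *MxCDX2* mice). Of the megakaryocyte markers 3 of 6 were called lower by edgeR, 2 by DESeq2 and 0 by limma voom. Their sum was 32068 and 22584 in control mice 1 and 2 and 265084 in the wild-type control mouse, against 10083 to 13798 in the *MxCDX2* mice, and without the wild-type mouse 4 were called lower. Of the monocyte markers 5 of 8 were called higher, with sums of 239338 to 363583 in the control mice and 549649 to 651122 in the *MxCDX2* mice. Those not called, *Cx3cr1*, *Fn1* and *Lyz2*, had log2 fold changes of 0.10, -0.82 and 0.23. Without the wild-type control mouse 5 monocyte markers were called higher and 1 lower. The part of these cell types in the antioxidant results was not tested.

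**Figure D3:**
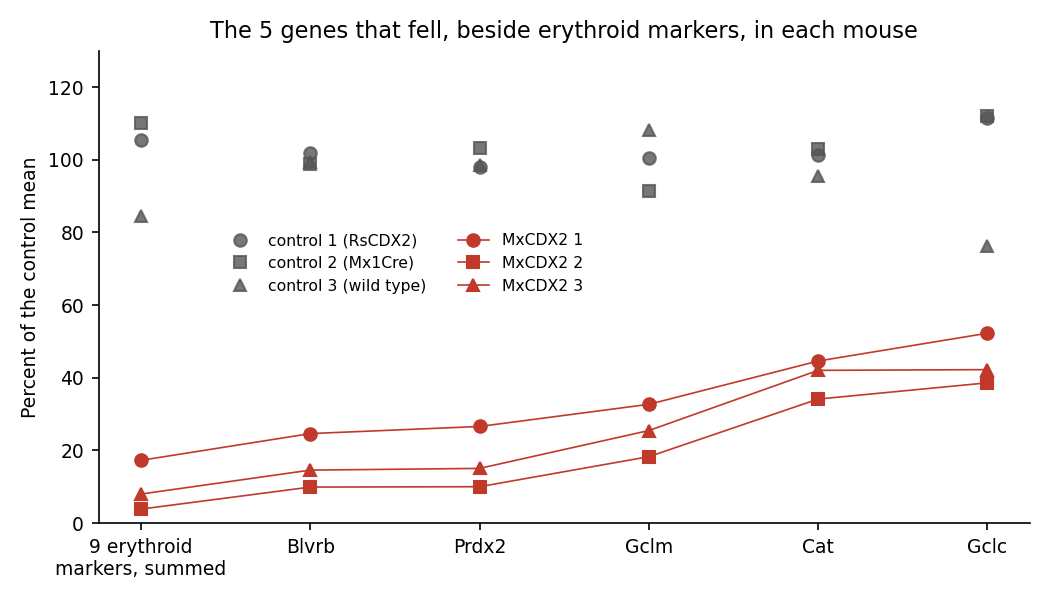
Level in each mouse, in percent of the control mean, of 9 erythroid markers summed without the globin genes and of the 5 antioxidant genes that fell, with lines joining the values of 1 *MxCDX2* mouse. In each *MxCDX2* mouse (red) the marker sum is lowest, at 17.3%, 3.87% and 8.01%, and mouse 1 is above mouse 3 and mouse 2 for every gene.

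Levels were compared between genes per kb of exon. In control mice *Gpx1* was by far the highest, at 57164 ± 5214 normalized counts per kb (SD, n = 3). *Prdx2* came next at 9406 ± 268 followed by *Gsr* at 7722 ± 1695, with overlapping ranges. *Blvrb* (4723 ± 72.2), *Cat* (4572 ± 178) and *Gpx4* (4534 ± 1716) could not be ordered beyond their spread. *Sod1* (1986 ± 664) overlapped with *Nfe2l2* (1965 ± 84.7), and *Gclm* (1529 ± 128) with *Gclc* (1499 ± 307) at the lower end.

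In *MxCDX2* mice *Gpx1* was still the highest, at 40181 ± 2203 normalized counts per kb. *Gsr* was second at 8733 ± 1778 followed by *Gpx4* at 3406 ± 338. *Nfe2l2* (1912 ± 315), *Cat* (1841 ± 250), *Prdx2* (1621 ± 799) and *Sod1* (1616 ± 354) each overlapped with the next, so that *Prdx2* went from second in control mice to a group of genes with no order. *Blvrb* (774 ± 355) overlapped with *Gclc* (665 ± 106), and *Gclm* was lowest at 390 ± 110. Exon length set part of this order: with the length of the principal transcript in place of all exon bases, chosen after the data had been seen, *Sod1* was 4th in control mice and 2nd in *MxCDX2* mice, and *Prdx2* went from 2nd to 5th.

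Among the transcripts of the 4 peroxide-removing enzymes, per kb of exon, *Prdx2* made up 12.6%, 12.0% and 12.7% in the control mice and 4.97%, 2.15% and 3.03% in the *MxCDX2* mice. The groups were far apart, with means of 12.4% ± 0.376 and 3.38% ± 1.45 (SD, n = 3) and a difference of -9.06 percentage points (exact two-sided permutation p = 0.10, the smallest possible). The share of *Gpx1* was 75.5% ± 2.78 in control and 85.5% ± 1.32 in *MxCDX2* mice, and that of *Cat* was 6.05% ± 0.266 and 3.90% ± 0.307, again without overlap (exact permutation p = 0.10 for each). The share of *Gpx4*, 6.05% ± 2.498 and 7.26% ± 0.878, overlapped (exact permutation p = 0.50). Since these are shares of a sum, a lower share of one gene raises the others. The sum itself was 75676 ± 4510 normalized counts per kb in control mice and 47050 ± 3174 in *MxCDX2* mice.

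**Figure D4:**
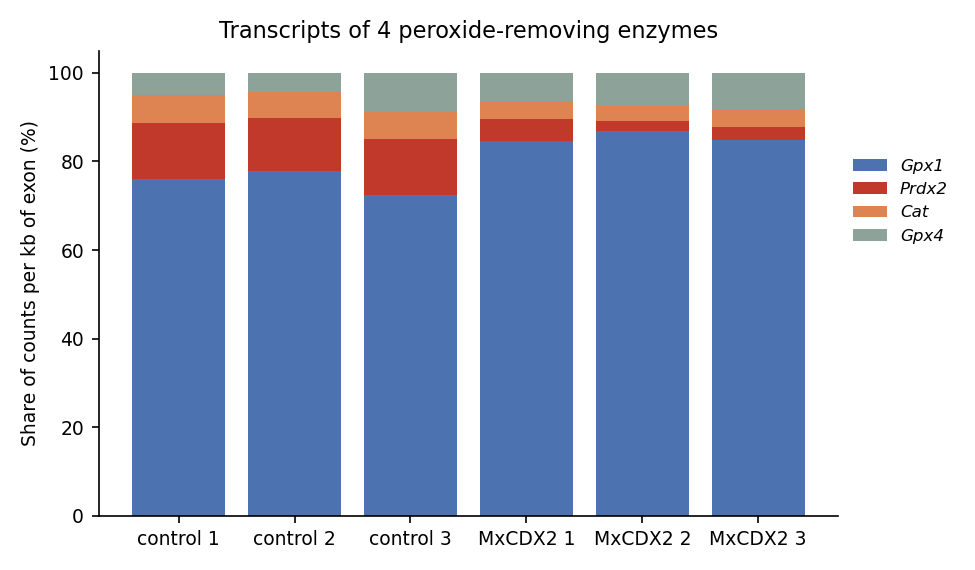
Share in percent of the summed counts per kb of exon of *Gpx1*, *Prdx2*, *Cat* and *Gpx4* in each mouse, as stacked bars. The *Prdx2* segment (red) takes 12.0% to 12.7% in the control mice and 2.15% to 4.97% in the *MxCDX2* mice.

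The surrounding pathways held 87 further genes, of which 84 were tested, and 5 were called higher and 10 lower, with a median log2 fold change of -0.11. This is 15 of 84 called, against 13.6% of all tested genes. The largest group of falls was in glutathione supply and turnover, where 4 of 9 genes were lower and 1 was higher (median log2 fold change -1.49). Without the wild-type control mouse 5 of them were called lower and 1 higher. *Chac2*, which encodes an enzyme that degrades cytosolic glutathione, fell from 1152 ± 145 to 250 ± 93.9 normalized counts (SD, n = 3; log2 fold change -2.21, SE 0.30, edgeR adjusted p = 0.00445). *Ggt1* and *Ggt5*, whose products cleave glutathione outside the cell, fell with log2 fold changes of -2.02 (SE 0.46, adjusted p = 0.0242) and -1.51 (SE 0.30, adjusted p = 0.0154). The member that rose was *Gss*, glutathione synthetase, which completes glutathione after the step of *Gclc* and *Gclm*. It went from 535 ± 121 to 1597 ± 307 normalized counts (log2 fold change 1.58, SE 0.22, edgeR adjusted p = 0.00529). The calls of *Ggt1* and *Ggt5* rested on single mice: the edgeR adjusted p of *Ggt1* was 0.0636, 0.0838 and 0.0831 without *MxCDX2* mouse 1, 2 or 3, and that of *Ggt5* was 0.0695 without *MxCDX2* mouse 3.

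Among the other glutathione peroxidases 1 of the 3 tested was called. *Gpx3*, the secreted peroxidase of plasma, rose from 2664 ± 1344 to 10574 ± 1427 normalized counts (SD, n = 3; log2 fold change 1.99, SE 0.37, edgeR adjusted p = 0.0124), in contrast to the values of *Gpx1* and *Gpx4*. In the peroxiredoxin and thioredoxin system 1 of 12 genes was lower and none higher (median log2 fold change -0.24). This was *Txnrd2*, the mitochondrial thioredoxin reductase, which fell from 3504 ± 427 to 916 ± 115 (log2 fold change -1.93, SE 0.15, edgeR adjusted p = 0.00136). No peroxiredoxin gene other than *Prdx2* was called with all mice. *Prdx3* and *Prdx5* were lower without overlap between groups, with log2 fold changes of -0.61 and -0.28 (edgeR adjusted p = 0.01 and 0.164). *Prdx4* was higher without overlap, with a log2 fold change of 0.76 (edgeR adjusted p = 0.0537). Without the wild-type control mouse *Prdx4* passed both thresholds (log2 fold change 1.05, edgeR adjusted p = 0.00549). *Prdx3*, *Prdx4* and *Prdx5* are named here after their values were seen. Of the 18 glutathione transferases and glutaredoxins 2 were higher and 2 lower (median log2 fold change -0.08). Without the wild-type control mouse *Gstt3*, named after its values were seen, passed both thresholds (log2 fold change 1.34, edgeR adjusted p = 0.0145). With all mice its log2 fold change was 0.95 (edgeR adjusted p = 0.0845). *Mgst3*, a microsomal transferase, fell with a log2 fold change of -2.45 (SE 0.32, edgeR adjusted p = 0.00403). *Glrx5*, which serves iron-sulfur cluster assembly in mitochondria, fell from 6819 ± 664 to 1827 ± 334 (log2 fold change -1.90, SE 0.16, edgeR adjusted p = 0.00159).

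*Gstm1* and *Gsto1*, which encode cytosolic transferases, rose with log2 fold changes of 1.23 (SE 0.30, edgeR adjusted p = 0.029) and 1.06 (SE 0.16, adjusted p = 0.00653). Both calls depended on which mice were included. *Gstm1* lost its call without control mouse 2 (edgeR adjusted p = 0.0633), control mouse 3 (log2 fold change 0.98) or any *MxCDX2* mouse (edgeR adjusted p from 0.0555 to 0.0928). *Gsto1* went under the fold threshold without control mouse 2 (log2 fold change 0.94) or *MxCDX2* mouse 3 (0.98).

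NRF2 targets and NRF2 partners were counted apart. Among 11 other NRF2 targets 2 were lower and none was higher past both thresholds (median log2 fold change -0.98). DESeq2 and limma voom each called 3 lower and 0 higher. By unadjusted p below 0.05 in edgeR there were 9. Of these, 2 were higher, *Abcc4* and *Abcc1*, with log2 fold changes of 0.76 and 0.42. *Slc7a11*, also listed under glutathione supply and named after its values were seen, was not called with all mice (log2 fold change -2.44, edgeR adjusted p = 0.1). Without the wild-type control mouse *Slc7a11* passed both thresholds (log2 fold change -2.89, edgeR adjusted p = 0.0401). *Nqo1*, a quinone reductase and a standard readout of NRF2 activity, fell from 724 ± 64.3 to 96.5 ± 25.3 normalized counts (SD, n = 3; log2 fold change -2.91, SE 0.25, edgeR adjusted p = 0.00159). *Hmox1*, heme oxygenase 1, was also called, with 12066, 10062 and 26103 in control mice and 7304, 3554 and 5992 in *MxCDX2* mice (log2 fold change -1.52, SE 0.43, edgeR adjusted p = 0.0465). This call was lost without any single mouse other than control mouse 2: the log2 fold change was -0.96 (edgeR adjusted p = 0.056) without control mouse 3, and the adjusted p was 0.0632 without control mouse 1 and 0.0673, 0.127 and 0.128 without *MxCDX2* mouse 1, 2 or 3. *Hmox1* was also the 1 gene called among 3 of heme breakdown, the heading under which *Blvrb* was listed. The others of that list, *Hmox2* and *Blvra*, had positive log2 fold changes of 0.37 and 0.56 (edgeR adjusted p = 0.0964 and 0.13). Of the 12 partners and regulators of NRF2, 0 passed both thresholds in edgeR, DESeq2 or limma voom, and 3 had an unadjusted p below 0.05 in edgeR (median log2 fold change -0.14). These 3, named after their values were seen, were all lower, without overlap between groups. They were *Mafk* (log2 fold change -0.74, edgeR adjusted p = 0.0135), *Nfe2* (-0.52, adjusted p = 0.0206) and *Sqstm1* (-0.34, adjusted p = 0.0437). Without the wild-type control mouse 1 of the 12, *Bach2*, passed both thresholds, with a log2 fold change of -1.84 (edgeR adjusted p = 0.0312). With all mice its adjusted p was 0.149, and it too is named after its values were seen.

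NADPH, the electron source of *Gsr*, is supplied by 12 listed genes, of which 1 was higher and 1 lower (median log2 fold change -0.08). *Idh1*, cytosolic isocitrate dehydrogenase, rose from 2963 ± 455 to 7263 ± 806 normalized counts (SD, n = 3; log2 fold change 1.29, SE 0.15, edgeR adjusted p = 0.00293). *Nadk2*, the mitochondrial NAD kinase, fell from 4662 ± 708 to 1895 ± 272 (log2 fold change -1.30, SE 0.16, edgeR adjusted p = 0.00345). In the other superoxide dismutase genes (3 tested, median log2 fold change -0.22) and in selenoprotein synthesis (6 tested, median 0.19), which supplies the selenocysteine of *Gpx1* and *Gpx4*, 0 genes were called by edgeR, DESeq2 or limma voom, and 0 had an unadjusted p below 0.05 in edgeR.

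**Figure D5:**
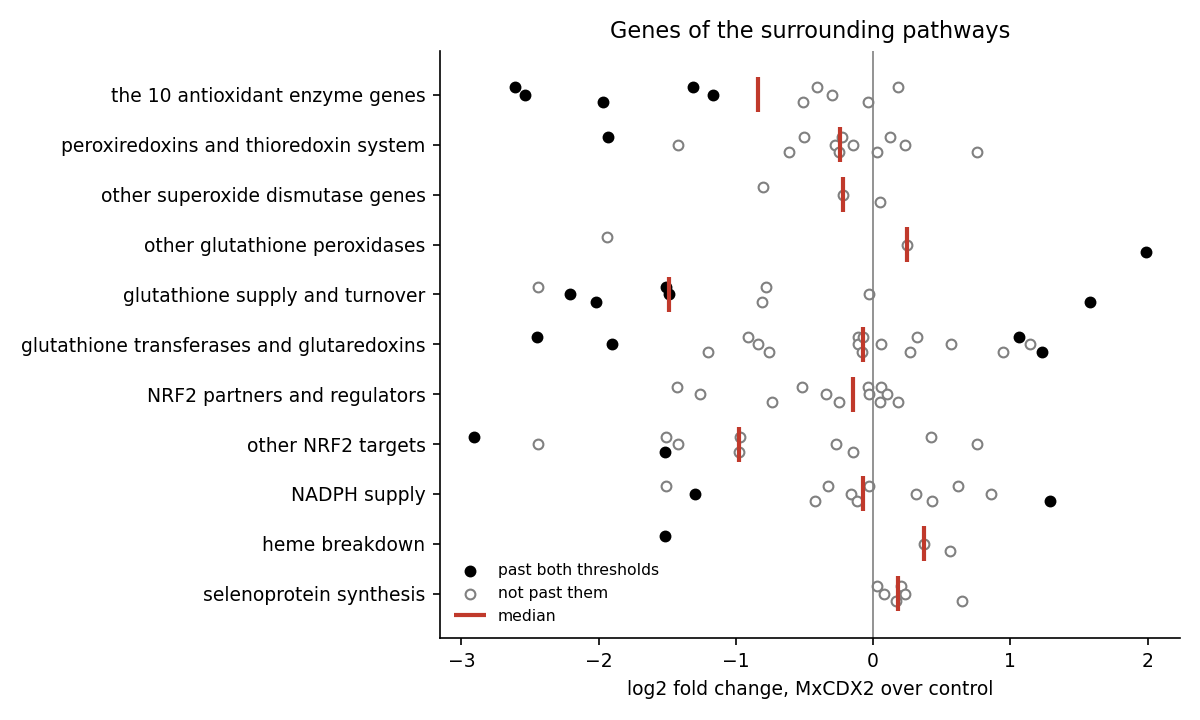
log2 fold change, *MxCDX2* over control mice, of each tested gene in the 10 antioxidant genes and the surrounding pathway lists, filled where both thresholds were passed, with a red line at the median of each list. Medians are -0.84 for the antioxidant genes, -1.49 for glutathione supply and turnover and -0.98 for other NRF2 targets, and the other lists have medians between -0.24 and 0.37.

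Genes with a profile over the 6 mice most like a member were sought for the member with the lowest and the member with the highest log2 fold change, among 11981 tested genes whose normalized counts averaged 100 or more. Likeness was the root mean square difference of log2 normalized counts, each gene centred on its own mean. For *Blvrb*, *Prdx2* itself was among the nearest, at 0.052, together with *Kcnn4*, a calcium-activated potassium channel of red cells, also at 0.052. *Kcnn4* had normalized counts of 5159, 5423 and 5253 in control mice and 1263, 484 and 743 in *MxCDX2* mice. For *Gsr* the nearest included *Tia1* (0.057) and *Rgs2* (0.061), with log2 fold changes of 0.19 and 0.11, neither of which passed the test (edgeR adjusted p = 0.581 and 0.773).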

How the data were processed

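Total RNA of mouse bone marrow was sequenced as stranded mRNA libraries. The authors aligned reads to GRCm38 with STAR 2.5, counted them per gene with HTSeq 0.6.1 (demultiplexing with bcl2fastq 2.17.1.14, per the labels) and deposited raw counts, without normalization. The strand setting of the counting is not given in the sources used here. Reads on no gene or on several genes were left out. They made up 9.22% to 14.1% and 2.99% to 3.16% of all that HTSeq tallied, on genes and in its summary classes.

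Symbols, positions and exon lengths came from GENCODE M21. The counts were fitted with edgeR 4.0.16 under R 4.3.3 (TMM, filterByExpr, glmQLFit and glmQLFTest), with p-values adjusted by the Benjamini-Hochberg method over 15980 genes. Standard errors were derived from the F statistic. Single values were compared with the exact two-sided permutation test. DESeq2 1.42.0, limma 3.58.1 (voom), other scalings and filters, and each mouse left out in turn were alternatives. Scripts were tested on simulated data.

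From each pathway list the text names at most the 3 largest rises and 3 largest falls past both thresholds (normalized counts averaging 100 or more), and the 3 genes nearest in profile to the highest and lowest member. Some genes named by this rule are not reported here. The members and lists were chosen with earlier results of these data known. Python 3.11.15 was used for the remaining tables (with numpy 2.4.6, scipy 1.17.1 and pandas 2.3.3) and for the figures (matplotlib 3.10.9).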

Additional observations from a re-analysis of the deposited data

How the results depend on the processing

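*Blvrb*, *Prdx2*, *Gclm*, *Cat* and *Gclc* stayed called lower with DESeq2, limma voom, every scaling and filter, and each mouse left out in turn. The test against a log2 fold change of 1 left 3 of them, by both thresholds and by adjusted p alone, and lost *Cat* (adjusted p = 0.0938) and *Gclc* (0.522). Among the pathway genes named, the same test ended the calls of *Gss* (adjusted p = 0.0886), *Gpx3* (0.0987), *Idh1* (0.158), *Ggt1* (0.163), *Nadk2* (0.179), *Ggt5* (0.221), *Hmox1* (0.409), *Gstm1* (0.601) and *Gsto1* (0.87), and *Hmox1* was also lost with total counts only (0.0556). Over the alternatives, 134 of 140 values on single members kept direction and side of the threshold. The direction turned for *Nfe2l2* with total counts only (0.074), without control mouse 1 (0.006) and without *MxCDX2* mouse 2 (0.075), and for *Sod1* without control mouse 3 (0.029). It also turned for *Rgs2* (-0.027) without control mouse 3, and for *Tia1* (-0.016) and *Rgs2* (-0.062) without *MxCDX2* mouse 2. The cause was not tested. With each mouse left out in turn, log2 fold changes ran from -0.487 to 0.029 for *Sod1*, from -0.166 to 0.075 for *Nfe2l2*, and up to 0.375 and 0.363 for *Tia1* and *Rgs2*. Scaling by total counts only moved the median log2 fold change of all genes by 0.116 and the share of higher calls from 33.7% to 41.5%. The difference in *Prdx2* share was -15.4 percentage points with no division by exon length and -12.0 with the length of the principal transcript, and -9.86 to -8.44 with each mouse left out. Over all genes, calls numbered 734 higher and 1443 lower in edgeR, 878 and 2022 in DESeq2, and 239 and 372 in the test against a log2 fold change of 1. No paired analysis was possible because the labels number the *MxCDX2* mice alone and give the groups no shared number. The members had at least 1332 reads in every mouse.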
